A study of Homo sapiens with 5 samples.

Results

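The basement membrane genes examined here are 30 named genes of the 20007 protein-coding genes in the annotation. They encode the chains of collagen IV, the multiplexins, laminin chains, nidogens, heparan sulphate proteoglycans, fibulins and a few proteins that link or cross-link these. A TEAD4 peak was given to a gene when its summit, the base of highest signal, lay in the gene body or within 50 kb of any annotated transcription start site (TSS) of that gene. By this rule 111 of the 21113 TEAD4 peaks lay at a basement membrane gene, and 26 of the 30 genes had at least 1.

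The study profiled the DNA binding of TEAD4 by ChIP-seq in LX-2, an established line of human hepatic stellate cells used as a culture model of the myofibroblastic stellate cell of the fibrotic liver. All 5 samples came from LX-2 cells grown in DMEM with 5% FBS and given the solvent DMSO, namely 3 TEAD4 immunoprecipitations and 2 input chromatin samples, of which 1 was shared by replicates 1 and 2. The authors built a single peak list from replicates 1 and 3, the only ones they found concordant enough, and left replicate 2 out. Because every sample shared the same treatment and the list holds no value per replicate, no condition was compared, no spread between replicates could be given, and the depth per sample is unknown. One cell line was used, so the values describe LX-2 chromatin only, and a peak list cannot be checked against expression markers of stellate cells. A peak records where TEAD4 was recovered. It does not record whether a gene was expressed, nor which gene the site acts on.

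Basement membranes are thin sheets of extracellular matrix beneath epithelia and endothelia and around muscle, fat and nerve cells. Laminin heterotrimers of an alpha, a beta and a gamma chain polymerise at the cell surface, collagen IV trimers form a second, covalently linked network, and nidogens and the proteoglycan perlecan bind both. In normal liver the space of Disse, where stellate cells reside, holds only a sparse matrix of this kind, and stellate cells are among the cells that deposit collagen IV and laminins there during fibrosis. TEAD4 is a DNA-binding partner of the co-activators YAP and TAZ and recognises the sequence ACATTCC, called the TEAD motif below.

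Read on both strands, the TEAD motif was present no farther than 100 bp from the summit in 22.97% of all 21113 peaks. The stretches printed here come from the strongest basement membrane peaks that hold it and show the motif in its genomic setting. They are plus-strand hg38 sequence, with the motif in capitals, either as ACATTCC or as its reverse complement GGAATGT. The first is the site nearest the summit of the strongest peak of all, in COL4A2 (chr13:110448452-110448480). The next lie in intron 1 of HSPG2 (chr1:21931382-21931442), upstream of LAMB2 (chr3:49133742-49133802), in intron 4 of LAMB1 (chr7:107995967-107996027) and in intron 10 of NPNT (chr4:105966142-105966254).
COL4A2 peak: attggtgagctGGAATGTgactgacttgc
HSPG2 intron 1 peak: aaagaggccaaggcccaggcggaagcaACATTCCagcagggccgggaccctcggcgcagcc
LAMB2 upstream peak: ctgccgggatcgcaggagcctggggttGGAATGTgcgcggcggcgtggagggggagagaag
LAMB1 intron 4 peak: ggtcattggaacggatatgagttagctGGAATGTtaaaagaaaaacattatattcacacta
NPNT intron 10 peak: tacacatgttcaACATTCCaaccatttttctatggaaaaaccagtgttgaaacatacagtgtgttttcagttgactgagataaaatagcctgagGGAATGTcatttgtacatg

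The COL4A2 peak held a further TEAD motif, on the opposite strand and 24 bp away centre to centre, and the NPNT peak held its 2 motifs 82 bp apart, again on opposite strands. In COL4A2, HSPG2, LAMB2 and LAMB1 the motif nearest the summit was centred 5, 17, 8 and 25 bp from it.

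At 4 basement membrane peaks the TEAD motif shared that stretch around the summit with an AP-1 motif, TGACTCA or TGAGTCA, which FOS and JUN dimers bind. The 3 strongest of these are shown with both motifs in capitals. They lie downstream of HSPG2 (chr1:21817042-21817102), upstream of COL15A1 (chr9:98908759-98908844) and downstream of COL4A4 (chr2:226963696-226963770).
HSPG2 downstream peak: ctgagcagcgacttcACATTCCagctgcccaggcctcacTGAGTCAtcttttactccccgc
COL15A1 upstream peak: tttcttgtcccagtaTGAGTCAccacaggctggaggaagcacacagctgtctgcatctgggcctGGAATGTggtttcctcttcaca
COL4A4 downstream peak: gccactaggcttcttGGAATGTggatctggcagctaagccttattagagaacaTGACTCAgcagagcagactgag

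The centres of the TEAD and AP-1 motifs were 24 bp apart at HSPG2, 49 bp at COL15A1 and 38 bp at COL4A4. At the remaining such peak, in intron 14 of LAMB4, they were 104 bp apart.

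A TEAD4 peak was found at 26 of the 30 basement membrane genes (86.7%, Wilson 95% interval 70.3 to 94.7%) and at 56.2% of the remaining 19977 protein-coding genes (55.5 to 56.8%). These intervals and those below cover counting error only, and neighbouring genes that share a peak are not independent. The genes without a peak were COL4A3, FBLN1, FREM1 and FREM2. The summit nearest to a TSS of each lay 97093 bp away for COL4A3, 111972 bp for FBLN1, 82349 bp for FREM1 and 489998 bp for FREM2.

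Basement membrane genes are long, and a long gene offers more sequence in which a summit can fall. Their median length was 118.6 kb against 27.4 kb for the other genes, and the median window in which peaks were sought was 209.5 kb against 112.4 kb. When all protein-coding genes were put in 5 classes of about equal size by window length, 23 of the 30 fell in the longest class, windows of 168 kb or more. There 19 of 23 had a peak, against 70.7% of the other genes of that class. In the class just below, 6 of 6 had a peak against 60.2%, and LAMB2, the only one in the middle class, also had a peak, against 57.6%. Weighted to the length classes of the basement membrane genes, the share of other genes with a peak came to 68.2%, and the interval of the 86.7% starts at 70.3%. That margin is narrow, and the interval treats genes that share peaks as independent. No interval was computed for the basement membrane genes within a class, so an excess over genes of like length is not settled.

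**Figure D1:**
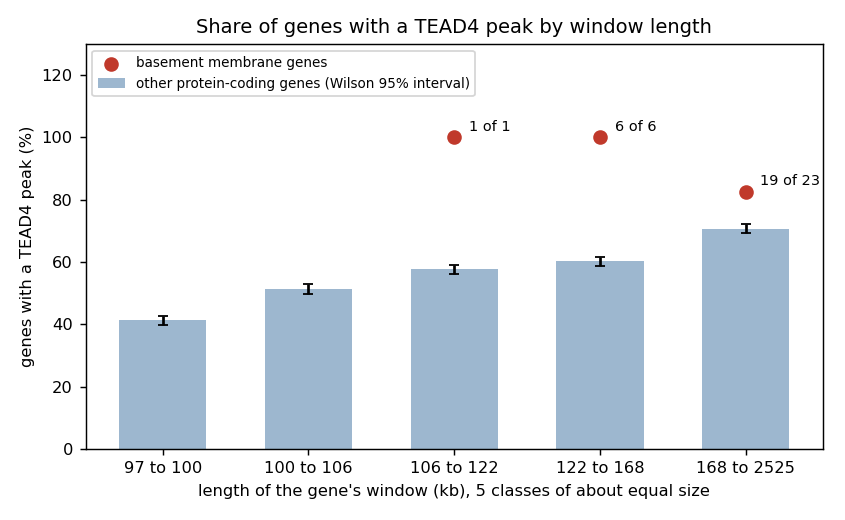
Share of genes with a TEAD4 peak (y axis, percent) in 5 classes of window length (x axis, kb), with bars and Wilson 95% intervals for other protein-coding genes and red points for basement membrane genes. The bars rise from 41.2% in the shortest class to 70.7% in the longest, and the points lie above the bars in each of the 3 classes that hold basement membrane genes.

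The number of peaks per gene differed more than the share of genes with a peak. The basement membrane genes had a median of 3 peaks and a mean of 4.1, against 1 and 1.44 for other genes, whose mean was 2.41 after weighting by length class. Of the 30 genes, 11 (36.7%) had 5 peaks or more, against 7.15% of other genes, and 3 (10%) had 10 or more, against 1.15%. Within the longest class the gap was narrower, with 5 peaks or more at 10 of 23 basement membrane genes (43.5%, 25.6 to 63.2%) against 20.3% of other genes. For 10 or more it was 3 of 23 (13%, 4.54 to 32.1%) against 4.93%, a value inside that interval. Of these 3 genes, COL4A1 and COL4A2 share 6 peaks. In peaks per megabase of window, with overlapping windows counted once, the basement membrane genes had 16.0 (111 peaks in 6.93 Mb, exact Poisson 95% interval 13.2 to 19.3). All other protein-coding genes had 8.85 and those of the longest class 8.67. Without COL4A1, COL4A2 and COL15A1, the genes with the most peaks, the remaining 27 genes had 12.4 peaks per Mb (9.80 to 15.5). These 3 were left out because of their counts, so a fall was bound to follow. The other protein-coding genes were not trimmed in the same way.

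**Figure D2:**
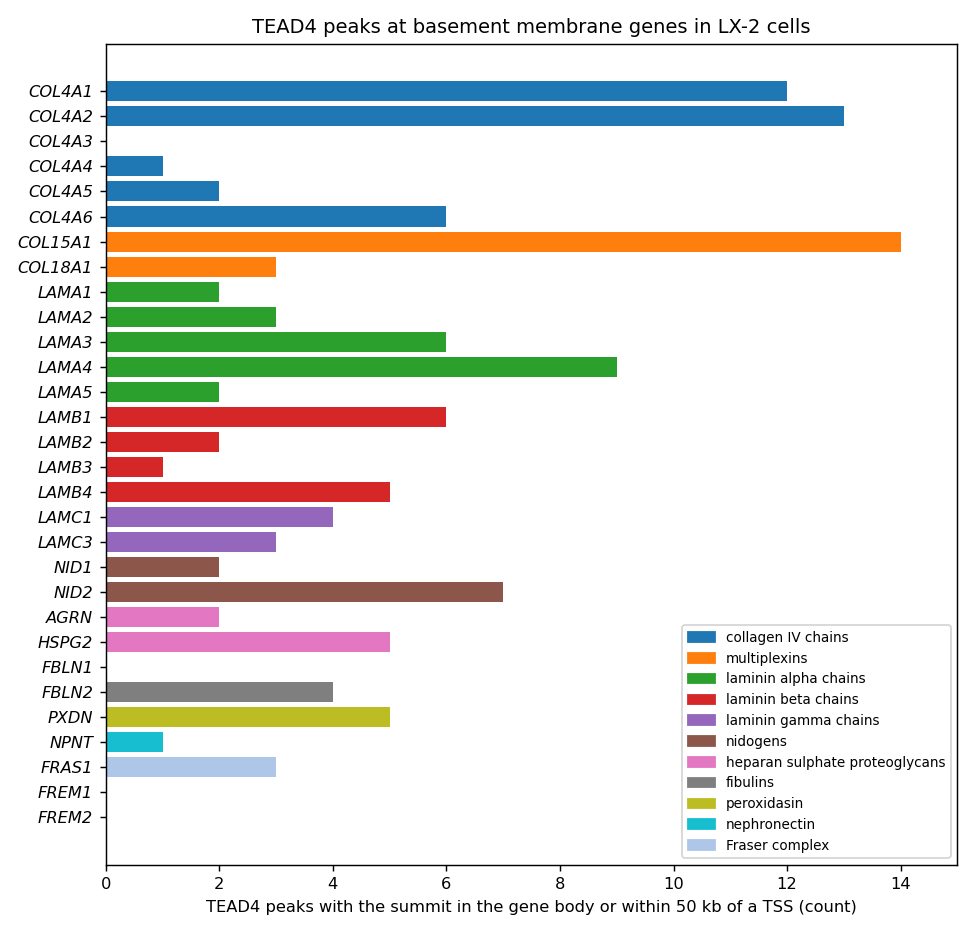
Number of TEAD4 peaks (x axis) at each of the 30 basement membrane genes (y axis), coloured by the protein's role. COL15A1 has 14 peaks, COL4A2 13 and COL4A1 12, while COL4A3, FBLN1, FREM1 and FREM2 have none.

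Peak strength, unlike peak number, was close to that of the rest of the list. The signal value is the peak caller's measure of enrichment at a peak and has no unit. Its median was 69.9 over the 111 basement membrane peaks (order-statistic 95% interval 62.8 to 85.2, quartiles 48.2 and 112.7) and 67.3 over the 15917 peaks at other protein-coding genes only (66.3 to 68.3). Of the 111 peaks, 10 (9.01%) lay in the strongest decile of the list, against 9.80% of peaks at other genes. Taking only the strongest peak of each gene, the median was 157.0 for the 26 basement membrane genes (119.6 to 256.3) and 97.4 for the 11219 other genes with a peak (95.4 to 99.1). A gene with more peaks has more values from which its strongest is taken.

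**Figure D3:**
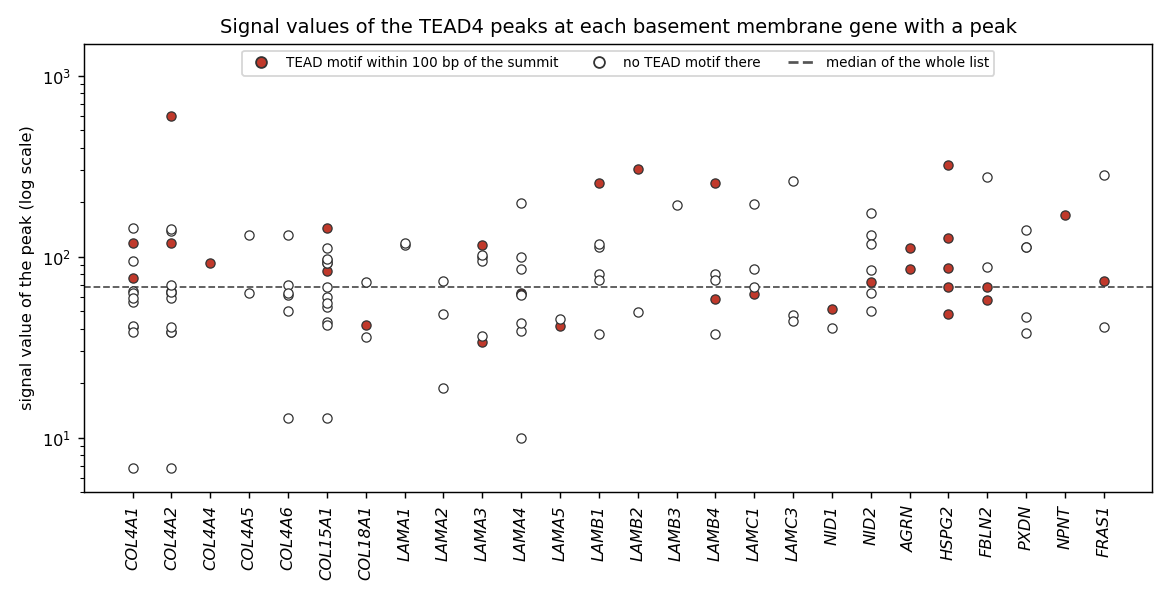
Signal value of each TEAD4 peak (y axis, log scale) at the 26 basement membrane genes with a peak (x axis), filled red where a TEAD motif lies within 100 bp of the summit, with the dashed line at the list median of 68.1. A peak in the windows of 2 genes is drawn at both, and the highest point, 598, is the COL4A2 peak.

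Collagen IV is made of 6 alpha chains whose genes stand head to head in pairs that share a promoter region. The COL4A1 and COL4A2 chains form the trimer found in nearly all basement membranes, whereas the other 4 chains are restricted to fewer tissues, such as the kidney glomerulus. The COL4A1 and COL4A2 pair on chromosome 13 had 19 peaks, or 42.4 per Mb (25.5 to 66.2). The COL4A5 and COL4A6 pair on the X chromosome had 6, or 9.52 per Mb (3.49 to 20.7), and the COL4A3 and COL4A4 pair on chromosome 2 had 1, or 2.51 per Mb (0.063 to 13.97). Other protein-coding genes of the longest class had 8.67 per Mb. The intervals treat each peak as independent, although some peaks of the COL4A1 and COL4A2 pair overlap one another. The differences between the pairs are therefore description only.

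None of the collagen IV peaks lay within 2.5 kb of a collagen IV TSS. At COL4A1 and COL4A2, whose canonical starts are 127 bp apart, the nearest summit was 2832 bp from an annotated start, in intron 1 of COL4A1, with a signal value of 64.6. That peak and 5 others lay in the windows of both genes and cannot be given to either. The weakest of these overlaps the 64.6 peak and stands near the floor of the list. Its signal value was 6.82, rank 21076, and the −log10 of its q-value 0.067. Most of the remaining peaks lay deep in the genes. COL4A2 carried a group of 5 in intron 4, between 83446 and 102353 bp from its canonical start, with signal values from 38.3 to 139.

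The strongest basement membrane peak lay at chr13:110448183-110448680, 141177 bp into COL4A2. Its signal value of 598 ranked 64 of the 21113 peaks. In the canonical transcript the summit is in intron 18, and in a shorter annotated transcript that ends nearby the same bases are untranslated exon. The second strongest collagen IV peak, in intron 1 of COL4A1 at 144, had no TEAD or AP-1 motif, and the same was true of the peak of 139 in intron 4 of COL4A2. A peak of 143 lay 33892 bp beyond the end of COL4A2, had an AP-1 motif and was nearer to a start of RAB20.

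The single peak of the COL4A3 and COL4A4 pair, with a signal value of 92.2, lay 38987 bp beyond the 3′ end of COL4A4 and was nearer to a start of RHBDD1. On the X chromosome, 2 peaks in intron 1 of COL4A5 (131 and 63.4) lay in the windows of both genes, COL4A6 had 2 of its own in introns 2 and 3 (50.5 and 69.6), and the other 2, beyond its 3′ end, were nearest to a TSS of another coding gene. No peak of this pair held a TEAD motif.

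The multiplexins COL15A1 and COL18A1 are collagens of the basement membrane zone that carry glycosaminoglycan chains, and a fragment of the latter is endostatin. COL15A1 had the most peaks of the 30 genes, 14 in a window of 195 kb, or 71.6 per Mb. Only 0.37% of other protein-coding genes, and 1.86% of those in the longest class, had as many. Some of the 14 overlap one another, so they mark fewer separate regions. The upstream peaks of 43.6 and 12.8 overlap, as do the intron 23 peaks of 144 and 53.0. Overlapping peaks were not merged in these counts, for COL15A1 or for other genes. Its signal values ran from 12.8 to 144, so that no single peak stood out as in COL4A2. Of the 14 peaks, 8 lay in introns 5 to 35, 5 upstream and 1 downstream, none within 2.5 kb of a TSS, and 4 held a TEAD motif. The 144 peak, in intron 23, was 2502 bp from an alternative start and 97268 bp from the canonical one. COL18A1 had 3 peaks, of 36.2 and 42.2 upstream and 72.6 in intron 2.

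**Figure D4:**
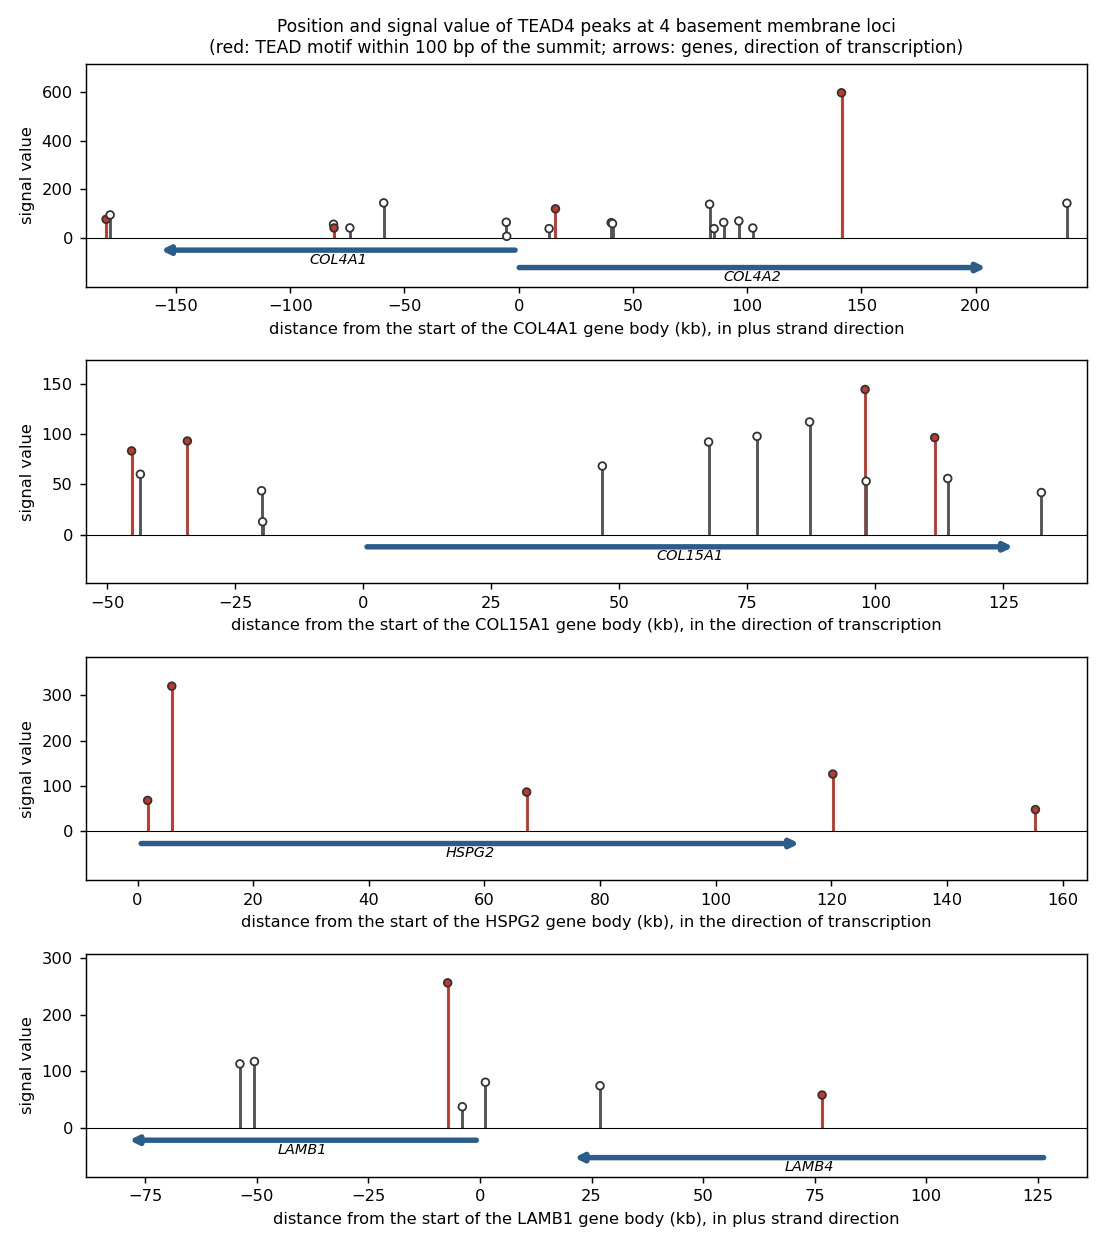
Position (x axis, kb from the start of the first-named gene) and signal value (y axis) of TEAD4 peaks at COL4A1 and COL4A2, COL15A1, HSPG2, and LAMB1 and LAMB4, with arrows for genes and red for peaks with a TEAD motif. The 598 peak stands far above the others of its locus, the COL15A1 peaks run from 12.8 to 144, and all 5 HSPG2 peaks are red.

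Laminin alpha chains carry the domain that binds cell surface receptors, and all 5 genes had a peak. LAMA4, the alpha chain of vessel and mesenchymal laminins, had the most, 9 peaks at 40.0 per Mb. Its strongest, 199 in intron 4, held an AP-1 motif, and 2 further peaks of 62.8 and 85.5 lay in the same intron. Its 2 downstream peaks (39.1 and 9.97) lay at the starts of TUBE1 and FAM229B, 1 and 34 bp from them. LAMA3, a chain of epithelial laminins, had 6 peaks between 33.8 and 117, all in introns. LAMA1, the chain of early embryonic laminin, had 2, LAMA2, the muscle and nerve chain, had 3, and LAMA5, the widespread adult chain, had 2.

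Of the 22 laminin alpha peaks, 8 held an AP-1 motif and 5 a TEAD motif, against 25.4% and 22.97% of all peaks. With so few peaks these counts are description only. In LAMA1 both peaks (116 in intron 53, and 119.6 at 40663 bp upstream) held AP-1 and neither held TEAD. In LAMA2 the intron 10 peak (73.7) held 2 AP-1 motifs, and the stronger of an overlapping pair of peaks in intron 56 (48.4 and 18.9) held 1.

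Each laminin beta chain gene also had a peak. LAMB1, whose chain is the commonest beta chain, had 6 peaks, the strongest of 256.3 in intron 4 with the TEAD motif printed above and another of 80.8 at 1218 bp upstream of a TSS. LAMB4 had 5, of which 4 were also in the window of LAMB1, among them the 256.3 peak. Its only peak not shared, 58.2 in intron 14, was the peak with TEAD and AP-1 motifs 104 bp apart. LAMB2, the beta chain of kidney and neuromuscular laminins, is the shortest of the 30 genes. Its upstream peak of 304 lay 646 bp from the nearest LAMB2 start, the third strongest of all 111 and the strongest within 2.5 kb of a basement membrane TSS. It lies in a crowded stretch of chromosome 3, in the windows of 6 other coding genes, although a LAMB2 start was the nearest. The other LAMB2 peak, 49.4, lay 4 bp from a start of QRICH1. LAMB3, the beta chain of epidermal laminin, had a single peak of 194, 4835 bp upstream, with no TEAD, AP-1 or RUNX motif.

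Among the laminin gamma genes, LAMC1 encodes the gamma chain shared by most laminins. It had 3 peaks in intron 1 (68.2, 62.7 and 85.2) and 1 of 196 beyond its 3′ end, nearer to the start of the neighbouring coding gene. LAMC3 had its strongest peak, 263, 46356 bp upstream with 2 AP-1 motifs, nearer to a start of FIBCD1. Its other 2 peaks (47.5 and 44.3) lay downstream and nearer to a start of another gene. None of the 3 LAMC3 peaks was inside the gene or nearest to a LAMC3 start.

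Nidogens bridge the laminin and collagen IV networks. NID2 had 7 peaks, or 43.4 per Mb, and NID1 2 weak ones (40.6 and 51.8). Of the NID2 peaks, 5 stood upstream of the gene, at 4357, 10381, 10663, 11589 and 11789 bp, with signal values of 63.4, 117, 50.4, 174 and 84.5. Those at 10381 and 10663 bp overlap each other, as do those at 11589 and 11789 bp, so the 5 are not all separate sites. None of these 5 held a TEAD or AP-1 motif, as was true of 56.1% of all peaks. The 2 in the gene body did, AP-1 in intron 12 (132) and TEAD in intron 9 (72.9).

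Perlecan (HSPG2) and agrin (AGRN) are heparan sulphate proteoglycans that bind laminin and growth factors, and agrin also clusters receptors at the neuromuscular junction. Each of their 7 peaks held a TEAD motif, 5 at HSPG2 and 2 at AGRN, against 22.97% of all peaks. This group was singled out after its values were seen. At HSPG2 the signal values were 321 and 68.3 in intron 1, 86.8 in intron 33, and 126 and 48.0 beyond the 3′ end. The 321 peak ranked 614 in the list and lay 5915 bp from the canonical start. The weakest of them lay 11 bp from a start of USP48. The 126 peak lay 4427 bp from a start of LDLRAD2 and 7196 bp from the nearest HSPG2 start. At AGRN the values were 111 in intron 2, 4703 bp from a TSS, and 85.2 at 23615 bp beyond the gene, nearer to another gene's start.

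The other HSPG2 stretches that lie inside the gene are shown with the motif in capitals. They are intron 33 (chr1:21870007-21870067) and the 68.3 peak of intron 1 (chr1:21935525-21935618), the third basement membrane peak with more than 1 TEAD motif.
HSPG2 intron 33 peak: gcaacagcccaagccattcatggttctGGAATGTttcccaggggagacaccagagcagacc
HSPG2 intron 1 peak nearest the start: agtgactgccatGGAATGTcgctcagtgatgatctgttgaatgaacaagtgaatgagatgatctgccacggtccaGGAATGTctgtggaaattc

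The fibulins bind laminin, nidogen and other matrix proteins. All 4 FBLN2 peaks lay upstream, at 2210, 8800, 9616 and 11098 bp, and none in the gene body. The farthest was the strongest, 278, and held a RUNX motif (TGTGGTT on either strand) but no TEAD motif, while the peaks of 68.0 and 58.0 held TEAD. FBLN1 had no peak in its window of 175 kb.

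Peroxidasin (PXDN) makes the sulfilimine bonds that cross-link collagen IV. Its 5 peaks had signal values of 141 upstream of the gene, 38.0 in intron 1, 113 in intron 4, 46.7 in intron 15 and 113 in intron 16. None held a TEAD or an AP-1 motif, as was true of 56.1% of all peaks. Nephronectin (NPNT), a ligand of integrin alpha8 beta1, had a single peak of 169.6 in intron 10, which held the 2 TEAD motifs printed above.

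FRAS1, FREM1 and FREM2 encode the Fraser complex, which anchors epithelial basement membranes to the dermis in development. FRAS1 had 3 peaks in a window of 537 kb, of 282 in intron 14, 73.6 in intron 19 and 40.7 in exon 71, the only basement membrane peak with its summit in an exon of a canonical transcript. The 282 peak ranked 892 in the list and held none of the 3 motifs. FREM1 and FREM2 had none, and the 3 genes together had 2.93 peaks per Mb, the lowest of the 11 roles. The multiplexins had the highest, 42.9 per Mb.

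Within 2.5 kb of any annotated TSS, 10 of the 30 genes had a peak (33.3%, 19.2 to 51.2%), against 16.6% of other protein-coding genes. Many of these TSSs start alternative or internal transcripts. Counting only the canonical TSS, 6 genes had a peak (LAMA5, LAMB1, LAMB2, HSPG2, FBLN2 and PXDN; 20%, 9.51 to 37.3%), against 11.0% of other genes. The interval at the canonical TSS includes the share of the other genes.

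The 14 promoter-proximal peaks ranged in signal value from 18.9 to 304. The LAMB2 peak of 304 was the only one above 120. In LAMA2 a pair of summits far inside the gene, 607550 and 607828 bp from the canonical start, stood 5 and 43 bp from the nearest of its alternative starts, a different one for each. In LAMA1 the intron 53 summit stood 196 bp from an internal start, and in LAMA3 that of intron 25 (94.6) 987 bp from one. The remaining promoter-proximal values were 45.5 at LAMA5, 80.8 at LAMB1, 85.2 at LAMC1, 87.9 at FBLN2, 86.8 and 68.3 at HSPG2, and 113, 46.7 and 38.0 at PXDN.

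Most basement membrane peaks lay farther than 2.5 kb from any TSS of their gene. The counts of position were not made for peaks at other genes, so they cannot be called particular to this set. Some of the peaks outside lay at a start of another gene, such as TUBE1, QRICH1 or USP48. Of the 111 peaks, 14 lay within 2.5 kb of a TSS of their gene, 58 inside a basement membrane gene but farther from a TSS, and 39 outside. The summit was in an intron of the canonical transcript for 67, of which 11 were in intron 1. A basement membrane gene had the nearest protein-coding TSS for 94 of the 111 (84.7%), and for 23 of the 39 outside. Only 55 lay in the window of a single protein-coding gene, so for the others the window alone does not assign the peak. In all, 64 of the 111 had the same width of 444 bp, and some stood so close together that merging overlapping intervals left 101.

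Of the 111 basement membrane peaks, 32 held the TEAD motif in the 100 bp to either side of the summit (28.8%, 21.2 to 37.9%), as did 22.9% of peaks at other genes only (22.3 to 23.6%). The AP-1 motif was in 22 (19.8%, 13.5 to 28.2%) and in 24.7% (24.0 to 25.4%), and the RUNX motif in 9 (8.11%, 4.32 to 14.7%) and 9.04%. Each interval of the basement membrane peaks includes the value of the other peaks, so no difference in motif share was resolved with 111 peaks. For TEAD this changed with only the peaks of the highest IDR score, where 31 of 85 basement membrane peaks (36.5%, 27.0 to 47.1%) and 24.5% of peaks at other genes held the motif. As a control for base composition, the TEAD motif read backwards without complement (CCTTACA) was in 1 of the 111 (0.901%) and in 1.95% of the others. Over the whole list the AP-1 motif was in 25.4% of peaks, the RUNX motif in 9.53% and the backwards motif in 2.00%.

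**Figure D5:**
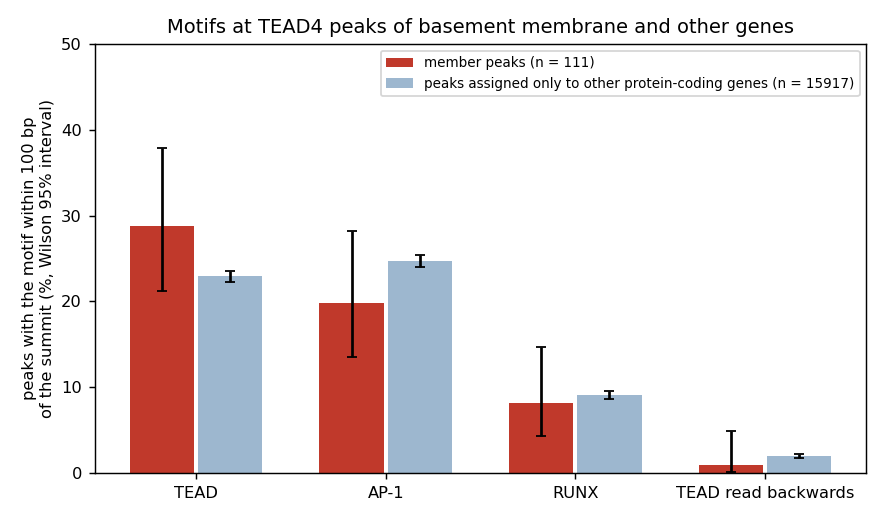
Share of peaks (y axis, percent) with the TEAD, AP-1 or RUNX motif, or the TEAD motif read backwards, within 100 bp of the summit, for 111 basement membrane peaks (red) and 15917 peaks at other protein-coding genes only (blue), with Wilson 95% intervals. The red intervals of all 4 motifs include the blue values, and the motif read backwards is far rarer than TEAD in both groups.

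Where the TEAD motif was present it lay close to the summit. The nearest match was centred a median of 19 bp from the summit over the 32 peaks, and within 25 bp in 21 of them. The median signal value was 80.0 (62.7 to 111.3) in peaks with the motif and 68.1 (59.0 to 85.2) in those without, with overlapping intervals. In 61 of the 111 peaks (55.0%) neither TEAD nor AP-1 was found, against 56.7% of peaks at other genes. Among these were the FRAS1 peak of 282 and the FBLN2 peak of 278. These searches are for exact letters, so a peak without a match can hold a variant of the motif.

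Genes that act with basement membranes were counted in the same windows, in 3 lists. All 10 receptor genes had a peak, with a median of 4.5 peaks a gene. Of other protein-coding genes 56.2% had any, or 61.7% weighted to the length classes of the receptor genes. ITGA1, the collagen-binding integrin alpha chain, had 17 peaks, ITGB1, its beta partner, 9, ITGA3, a laminin-binding chain, 7, and DAG1, which encodes dystroglycan, 6. The strongest receptor peak was at ITGA3, with a signal value of 347.

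Of 12 genes of collagen processing, assembly and cross-linking, 6 had a peak, against 56.2% of other protein-coding genes and 62.8% when these were weighted to the length classes of the list, so the count was no higher than the background. The genes with a peak were LOXL2, a lysyl oxidase that cross-links collagen IV (13 peaks), PLOD2, a collagen lysyl hydroxylase (8), SPARC, a collagen-binding matricellular protein (7, the strongest 441), P4HA2 and P4HA1, prolyl hydroxylase subunits (4 and 1), and SERPINH1, the collagen chaperone HSP47 (2). The other lysyl hydroxylases PLOD1 and PLOD3, the subunit P4HB, COLGALT1, MIA3 and TMEM38B had none.

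Of 13 further proteins of the basement membrane zone, 11 had a peak, against 56.2% of other protein-coding genes, or 63.9% weighted by length class. EGFLAM, which encodes pikachurin, had 12 peaks, TINAGL1 and TGFBI 6 each, and NTN4, a laminin-related netrin, 5, while HMCN1 and NTN1 had none. The strongest was at TGFBI, with a signal value of 340.4. Over the 3 lists, 27 of 35 genes had a peak, against 56.2% of other protein-coding genes, or 62.9% weighted by length class. Within 2.5 kb of any annotated TSS, 19 had one, against 16.6%. That comparison was not adjusted for the number of annotated TSSs or for length, and canonical TSSs were not counted apart.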

How the data were processed

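TEAD4 ChIP-seq of LX-2 cells (single-end reads of 50 bases, DNBseq) was analysed from 1 peak list. The authors mapped reads to hg38 with Chromap and applied the ENCODE IDR (irreproducible discovery rate) pipeline to replicates 1 and 3. Replicate 2 and the reads were not analysed here. The deposited score is the authors' scaled IDR (830 to 1000). Each peak also has a deposited signal value, a deposited −log10 of the q-value, both from the authors' peak caller, and a summit offset. The column meanings were read from the layout and values. The peak caller is not given in the sources used here. The list holds no column of values per sample, so depth per sample is unknown, and intervals give the precision of counts only.

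Genes, TSSs and canonical transcripts came from GENCODE release 44, and all 21113 peaks ended inside the hg38 chromosomes. A peak was assigned by its summit to every gene whose body, or 50 kb around a TSS, held it. Motifs were searched within 100 bp of the summit. No statistical test was run. Shares have Wilson 95% intervals, densities exact Poisson intervals and medians order-statistic intervals. The 30 genes and the 3 lists of related genes were chosen with earlier results of these data known. Every one of the 30 was named, with fuller values for the strongest peak of each role, the 10 strongest peaks, peaks near a TSS and the 5 genes with most peaks. Alternatives changed the distance, the TSSs, the peaks kept, the merging of peaks and the motif window, and 1 that left out 3 genes was added after the values were seen. Tested on simulated data, the code matched a direct search for 300 of 300 genes and found 1000 of 1000 planted motifs. Python 3.11.15, numpy 2.4.6, pandas 2.3.3, scipy 1.17.1 and matplotlib 3.10.9 were used.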

Additional observations from a re-analysis of the deposited data

How the results depend on the processing

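No paired analysis was possible because replicates 1 and 3 are merged in the peak list, and neither could be left out. Of 56 alternative values over 8 results, 45 stayed within the range allowed for each (1.5 times a count, or the interval of a share, density or median), and 11 did not. The number of basement membrane genes with a peak ran from 20 (gene body alone, 24.9% of other genes) to 28 (100 kb, 72.0%). The number of peaks fell to 68 with the gene body alone and to 60 with peaks above the median signal value. Peaks per Mb were 12.3 with the highest IDR score (other genes 6.69), 8.65 above the median signal value (4.38) and 12.4 without COL4A1, COL4A2 and COL15A1. The median signal value was 86.8 with the highest score (83.9) and 111.6 above the median (112.9). Genes with a peak near a TSS numbered 5 at 1 kb (12.3%), 16 at 5 kb (21.1%) and 6 with 1 TSS per gene (11.0%). The RUNX share was 3.33% above the median signal value (9.88%). The numbers of genes and peaks changed with the distance or the peaks kept by construction. The densities also fell by construction, since fewer peaks were counted over the same windows or the genes with the most peaks were left out. The median signal value of peaks above the median rose by construction too. For the median with the highest score and for the RUNX share the cause was not tested. The TEAD share stayed between 25.2 and 36.5%, above the other peaks in each alternative run. Its interval excluded their value only with the highest IDR score (36.5%, 27.0 to 47.1%, against 24.5%). The AP-1 share stayed between 13.5 and 27.0%, below the other peaks in each alternative run.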
